A study of Homo sapiens with 8 samples.

Results

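The distal end of the long arm of chromosome 9 was described through every peak, on either strand, whose start lay at or beyond position 136200000 of build hg19. There were 1863 such peaks among 194003 in 4 deposited lists, or 0.960% of all listed peaks. Libraries 1, 2, 3 and 4 contributed 369, 1065, 163 and 266 of them. The stretch reached to the end of the last listed peak at position 141123659, which is 4.92 Mb from the starting position. Choice of members used position alone, and none of their measured values.

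The cells were HUES6, a human embryonic stem cell line of wild-type genotype, labelled as control and grown in FTDA medium. Dishes of about 20M cells were crosslinked with UV light at 400 mJ/cm2. The 4 eCLIP libraries hold RNA immunoprecipitated with an RBPMS antibody, while the 4 input libraries hold RNA of the same line with no antibody. All 8 were sequenced as paired ends of 75 nt. Only the eCLIP libraries have a peak list, so the input enters through the authors' comparison of each peak with input. Nothing in the labels says that the libraries came from separate cultures, so the spread between them may be technical.

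RBPMS is an RNA-binding protein with a single RNA recognition motif that binds RNA as a dimer at paired CAC elements and is best known as a regulator of splicing in smooth muscle. In eCLIP, UV light joins a protein to the RNA it touches, the protein is pulled down, and the attached RNA is sequenced. A peak that holds more reads than input marks RNA that came down with the antibody. The far end of this arm carries, among others, genes for the signalling receptor NOTCH1, the guanine nucleotide exchange factor VAV2, the retinoid receptor RXRA, the adaptor TRAF2 and the histone methyltransferase EHMT1, in the RefSeq table of build GRCh38.p14. That is another build than the one of the lists, so no peak was assigned to a gene, an exon or an intron, and gene density was not analysed here. Positions are therefore the identity of each region below.

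Each peak carries 2 deposited values, a log2 fold of immunoprecipitation over input and a −log10 p. A peak was called enriched at a log2 fold of at least 3, which is 8-fold, together with a −log10 p of at least 3. The whole read numbers behind a peak were worked out from its pair of values. An input of 0 reads and an input of 1 read cannot be told apart in this way, so an input given as 1 stands for either. Where the p stops at the ceiling of 15.7 or at 400, only the smallest reads that give the fold are known, and they are given as "at least". The true reads can be a multiple of these. In some peaks they must be, since the smallest reads would not reach that p. Libraries 3 and 4 agreed within sampling noise (chi-square of 1.07 per degree of freedom over 368 paired peaks of all chromosomes, p = 0.184), while the other 5 pairs gave 6.59 to 12.7. Both were therefore counted as 1 sample, and means ± SD are over n = 3 samples: library 1, library 2, and the mean of libraries 3 and 4.

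Listed peaks lay more densely here than on the remainder of the chromosome, at 378 against 44.4 per Mb over the 4 lists together. Such numbers were also found within 5 Mb of other ends, taking the outermost listed peaks of a chromosome as its ends. There were 1824 listed peaks on the long arm of chromosome 17, 2397 on the short arm of chromosome 16 and 2635 on the short arm of chromosome 19. The stretch held 23.5% of chromosome 9's listed peaks and 32.9% of its enriched ones, 233 of 709. It also held 19 of the chromosome's 64 regions that were enriched in at least 3 of 4 libraries. More peaks were listed on the minus strand in each library, most unevenly in library 1. Plus-strand peaks numbered 151, 519, 71 and 132 in libraries 1 to 4, against 218, 546, 92 and 134 on the minus strand.

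Most listed peaks of the stretch rested on few reads and were not enriched. Their median log2 fold was 3.25, 1.06, 2.67 and 2.13 in libraries 1 to 4, on a median of 4, 5, 3 and 4 immunoprecipitation reads. The deposited log2 folds include the depth of input over immunoprecipitation, which was 3.18, 1.04, 2.12 and 1.46. A single read ratio therefore gives a higher fold in library 1 than in library 2. The 2 criteria removed different peaks in different libraries. In library 1, 118 peaks passed the fold but not the p, and 8 passed the p but not the fold. In library 2 these numbers were 10 and 30.

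Libraries 1 to 4 held 87, 82, 27 and 37 enriched peaks. That was 23.6% of the listed peaks of the stretch in library 1 (Wilson 95% interval 19.5% to 28.2%), where 15.9% of all listed peaks were enriched. In library 2 it was 7.70% (6.25% to 9.46%) against 5.38% of all. In library 3 it was 16.6% (11.6% to 23.0%) against 12.6%. In library 4 it was 13.9% (10.3% to 18.6%) against 12.7%. The intervals cover counting error only. The highest share, in library 1, lay apart from the lowest, in library 2.

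**Figure D1:**
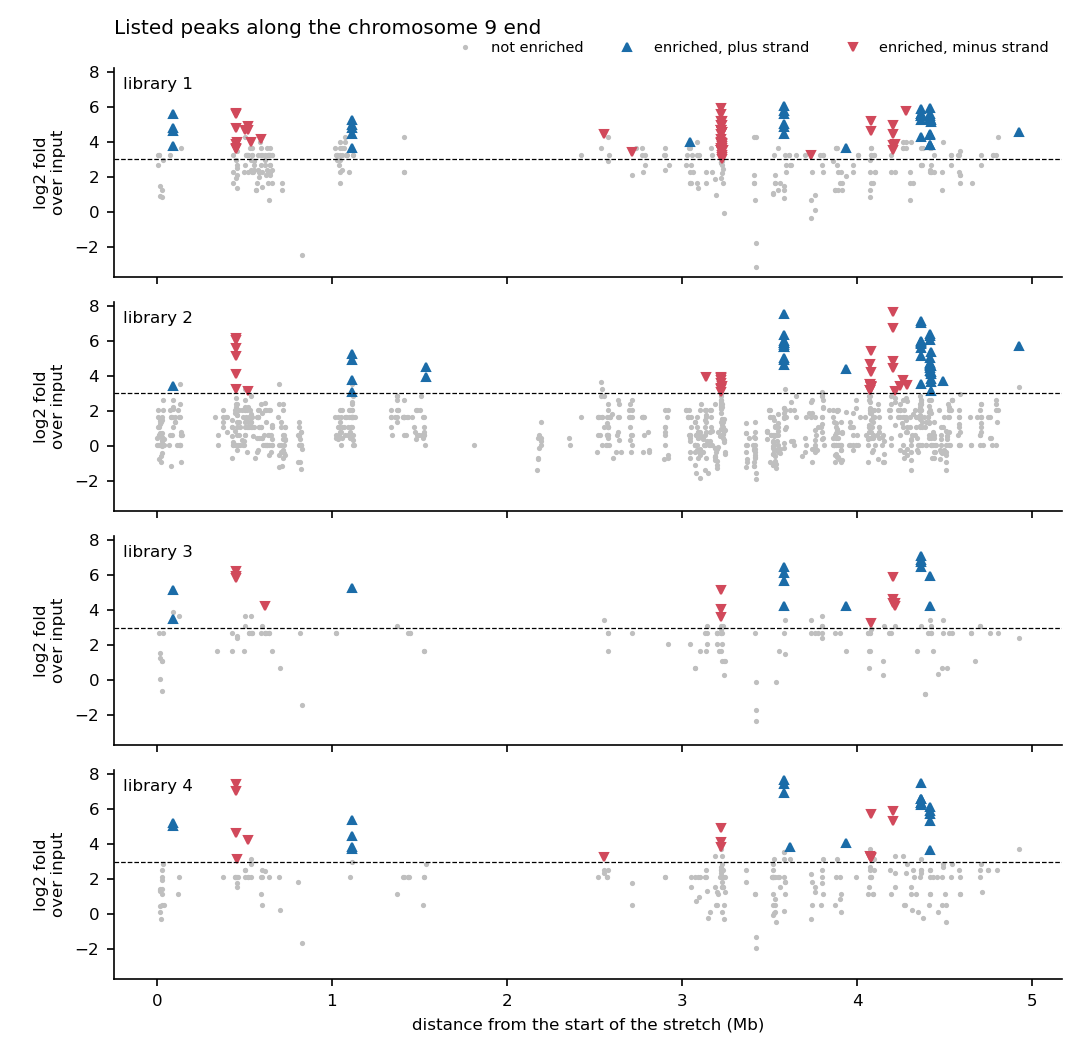
Each point is a listed peak of the stretch, plotted by its distance in Mb from the start of the stretch (x) and its deposited log2 fold over input (y), 1 panel per library. Triangles are enriched peaks, pointing up and blue for the plus strand and down and red for the minus strand, grey points are not enriched, and the dashed line is a log2 fold of 3. Enriched peaks stand in narrow columns that recur between libraries, and library 2 has the most grey points, 157 of them below 0.

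Averaged over samples, 15.5% ± 7.94 (SD, n = 3) of the listed peaks of the stretch were enriched, and 11.3% ± 5.36 of all other listed peaks. The difference was 4.24 ± 3.04 percentage points and was positive in 4 of 4 libraries (7.74, 2.34, 4.02 and 1.26 points). The exact sign-flip permutation test, two-sided over samples, gave p = 0.25, the smallest that 3 samples allow. Over the 6 comparisons of shares made here, the Benjamini-Hochberg adjusted p was 0.75 (exact sign-flip test). Its size depended on library 1 and on 1 place. Without library 1 the difference was 2.49 points, and without the peaks of 1 cluster described below, left out after seeing the data, it was 1.96 points. Against the other peaks of chromosome 9 alone the difference was 4.74 ± 2.68 points, again positive in 4 of 4 libraries (the same exact test, p = 0.25).

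Set against other chromosome ends, the stretch had a lower mean share. Over listed peaks within 5 Mb of the other ends, 17.9% ± 7.59 were enriched. Since ends were outermost listed peaks, some may not lie at a chromosome tip, and the effect of this on the mean was not tested. The difference, chromosome 9 end minus the other ends, was -2.41 ± 3.70 points (exact sign-flip test over samples, p = 0.5, adjusted p = 1). It was higher in library 1 by 0.73 points and lower in libraries 2, 3 and 4, at -1.47, -5.56 and -7.42 points. None of 3 ends compared singly differed by more than the spread between samples. The mean differences were -1.63 ± 7.28 points against the short arm of chromosome 16, -1.55 ± 6.58 against the long arm of chromosome 17, and -1.08 ± 3.59 against the short arm of chromosome 19 (exact sign-flip tests, p = 0.75, 1 and 1).

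**Figure D2:**
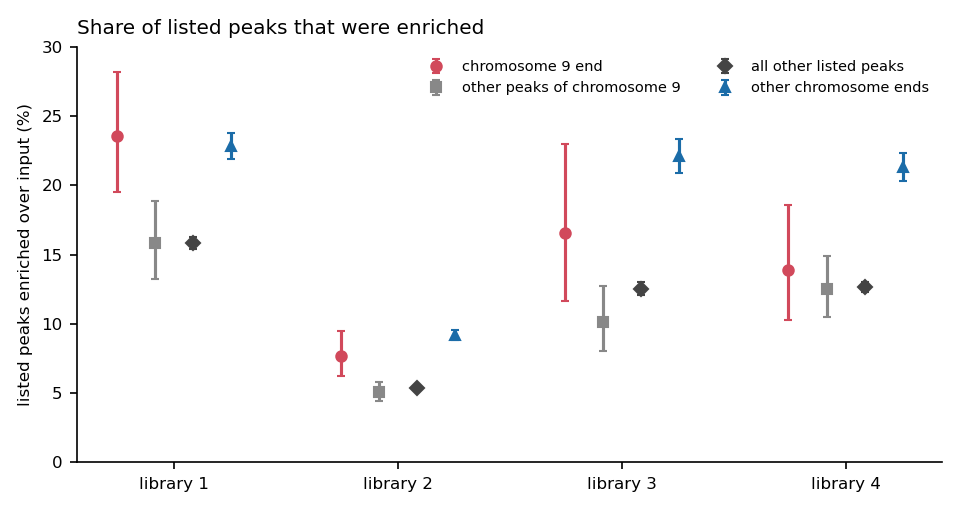
The y axis gives the percent of listed peaks that were enriched, for each library (x), in the chromosome 9 end, the other peaks of chromosome 9, all other listed peaks and the other chromosome ends. Bars are Wilson 95% intervals for counting error. The chromosome 9 end lies above all other listed peaks in each library, and below the other chromosome ends in libraries 2, 3 and 4.

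The starting position did not fall at an enriched place. In library 2 the nearest peaks on either side lay within 1 kb of it. The 2 inside had log2 folds of 0.48 and 0.06, and the 2 outside 1.65 and 1.38. In libraries 1, 3 and 4 the nearest peak outside lay 184, 196 and 217 kb away, so only library 2 shows the close surroundings on both sides. In library 1 the nearest inside had 2.67 and 3.25, and the nearest outside 2.25 and 3.99. In library 3 the values were 2.67 and 1.56 inside and 2.67 and 2.67 outside. In library 4 they were 1.38 and 1.44 inside and 2.54 and 2.13 outside. None of these 16 peaks was enriched.

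Enrichment was uneven along the stretch. The half-Mb from 4.0 to 4.5 Mb held 26, 46, 12 and 17 enriched peaks in libraries 1 to 4, which was 36.1%, 20%, 29.3% and 26.2% of the peaks listed there. Few peaks were listed from 1.5 to 2.5 Mb. From 1.5 to 2.0 Mb, 2 of 14 listed peaks were enriched in library 2 (14.3%), 0 of 2 in library 3 and 0 of 4 in library 4. From 2.0 to 2.5 Mb it was 0 of 1 in library 1 and 0 of 13 in library 2. The half-Mb from 3.0 to 3.5 Mb set library 1 apart, with 40.8% enriched against 5.23%, 9.09% and 5.77%.

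Merging enriched peaks that shared at least 1 base on a strand gave 100 regions. Of these, 13 were enriched in all 4 libraries and 6 in 3 of them, so 19 were counted as reproducible. That is 19% of the merged regions, where 22.7% of the merged regions of all chromosomes were reproducible. Regions enriched in all 4 libraries made up 13%, against 12.6% over all chromosomes. Both shares lie near this background. The other 81 regions were 11 enriched in 2 libraries and 70 in 1.

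A region enriched in 1 library was most often one of library 1 or 2. Library 1 alone gave 35 and library 2 alone 32, against 1 for library 3 and 2 for library 4. Over all chromosomes, 60.7% of the merged regions were enriched in 1 library, against 70% here. Of those, 28.3% were of library 1, 56.1% of library 2, 4.25% of library 3 and 11.4% of library 4, against 50%, 45.7%, 1.43% and 2.86% here. In 45 of the 70 (64.3%, against 64.5% over all chromosomes), another library listed a peak that missed the criteria. In the remaining 25 no other library listed one. Because libraries 3 and 4 count as 1 sample, the rule was also applied to 3 samples: 30 regions were then enriched in at least 2 of 3. Leaving out library 3 and asking for 2 of the remaining 3 gave 29.

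The 19 reproducible regions lay on both strands, 10 on plus and 9 on minus. The plus share of 52.6% compares with 53.6% over the 1699 reproducible regions of all chromosomes. No enriched region overlapped one on the other strand. Their widths ran from 73 to 554 bases with a median of 245, against a median of 168 over all chromosomes. The 13 regions enriched in all 4 libraries had mean log2 folds over libraries from 3.92 to 6.92. Their median was 5.37, against 5.01 for the 940 such regions of all chromosomes. The fold given for a region is that of its top enriched peak in each library, which favours regions made of many peaks.

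**Figure D3:**
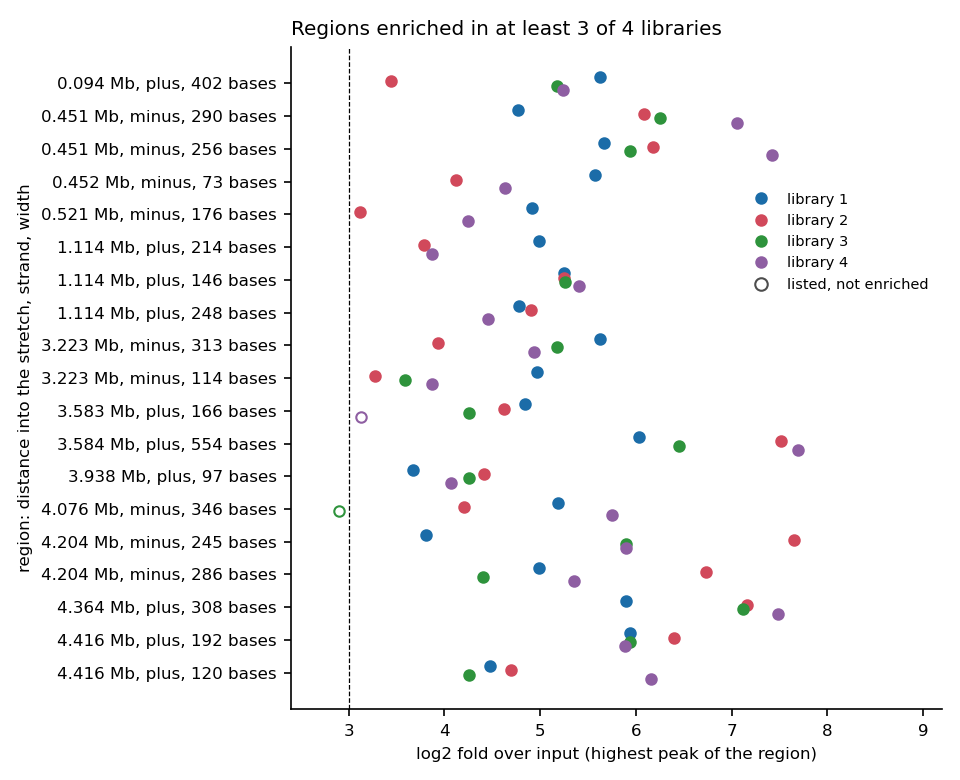
Each row is 1 of the 19 reproducible regions, ordered along the chromosome and named by its distance into the stretch in Mb, its strand and its width. Filled circles give the log2 fold of the highest enriched peak in each library, open circles a listed peak that was not enriched, and the dashed line a log2 fold of 3. The regions at 3.584 Mb and 4.364 Mb reach above 7 in at least 2 libraries, and that at 1.114 Mb with 146 bases has its 4 values closest together.

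The strongest region was chr9:139784200-139784753 on the plus strand, which was built from 20 enriched peaks. Its log2 fold was 6.03, 7.52, 6.45 and 7.69 in libraries 1 to 4, a mean of 6.87 ± 0.77 (SD, n = 3). The top peaks of libraries 1 to 4 rested on at least 185 over 9, 176 over 1, 124 over 3 and 142 over 1 reads, immunoprecipitation over input. Libraries 2 and 4 were high, library 3 lower and library 1 lowest. Here 10 peaks of library 2 followed each other without a gap, each called on its own, so 1 stretch of enriched RNA appears as many list entries. By its mean over the 4 libraries, 38 regions of all chromosomes enriched in all 4 were at or above it, itself included. On the same strand, with 1083 bases between them, lay a weaker region, chr9:139782951-139783116. It had 4.84, 4.63 and 4.26 in libraries 1 to 3. In library 4 it was listed at 3.13 on 6 reads over 1, with a −log10 p of 1.68, and so was not enriched.

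The second was chr9:140563795-140564102 on the plus strand, with 22 enriched peaks in 308 bases. Its log2 fold was 5.90, 7.16, 7.12 and 7.49, a mean of 6.79 ± 0.77. Library 1 was lowest, with 113 reads over 6, and the other 3 libraries lay within 0.4 of each other. Their reads were at least 275 over 2, 131 over 2 and 123 over 1. It stood in a cluster of 5 enriched regions over 1419 bases, in which 7 of 8, 9 of 11, 4 of 5 and 6 of 7 listed peaks were enriched. A cluster begins and ends at enriched regions, so these shares are raised by its definition.

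A run of 3 reproducible regions, chr9:136651055-136651673 on the minus strand, spanned 619 bases. The first, chr9:136651055-136651344, had log2 folds of 4.77, 6.08, 6.26 and 7.06, a mean of 5.84 ± 0.97. The second, chr9:136651345-136651600, had 5.67, 6.18, 5.94 and 7.43, a mean of 6.18 ± 0.51. Library 4 was highest in both. The third, chr9:136651601-136651673, had 5.57, 4.12 and 4.63 in libraries 1, 2 and 4 and was not listed in library 3. The 3 regions touch end to end without sharing a base, and when touching peaks were joined, a setting added after seeing the data, 17 reproducible regions remained of 19. Further on, also on the minus strand, chr9:136721449-136721624 had 4.91, 3.12 and 4.24 in libraries 1, 2 and 4, on 19 over 2, 25 over 3 and 13 over 1 reads.

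The other run of 3 was chr9:137313663-137314567 on the plus strand, over 905 bases. Its middle region, chr9:137313964-137314109, had the closest values of all: 5.25, 5.25, 5.26 and 5.40, a mean of 5.28 ± 0.04. The reads were 18 over 1 and 29 over 1 in libraries 3 and 4. In libraries 1 and 2 they were at least 12 over 1 and at least 73 over 2. Library 1 must have had more than 12 over 1. Another of its peaks in the stretch, with 12 over 1 and the same fold, had a −log10 p of 6.44, against 15.7 here. Its neighbours, chr9:137313663-137313876 and chr9:137314320-137314567, had 4.99, 3.79 and 3.86, and 4.78, 4.90 and 4.45, in libraries 1, 2 and 4. Library 3 listed neither.

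The region that differed most between libraries was the first of a pair on the minus strand, with 37 bases between them. Region chr9:140403558-140403802 had log2 folds of 3.80, 7.65, 5.89 and 5.90, a mean of 5.78 ± 1.93. The mean was 6.77 without library 1 and 4.85 without library 2. The reads were 22 over 5, at least 193 over 1, 28 over 1 and at least 41 over 1. Library 2 was thus nearly 4 log2 units above library 1, and 7.65 was the highest value of library 2 anywhere in the stretch. The neighbour, chr9:140403840-140404125, had 4.99, 6.73, 4.41 and 5.35, a mean of 5.53 ± 1.04, and library 2 was again highest.

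Near the far end of the stretch, chr9:140615579-140615770 on the plus strand had log2 folds of 5.94, 6.39, 5.94 and 5.88, a mean of 6.08 ± 0.27. The reads were at least 444 over 23, 242 over 3, 29 over 1 and 81 over 2. In library 3 they must have been more than 29 over 1. Another of its peaks in the stretch, with 29 over 1 and the same fold, had a −log10 p of 13.0, against 400 here. Libraries 1, 3 and 4 lay within 0.1 of each other and library 2 above them. The reproducible region nearest the chromosome end, chr9:140615980-140616099, followed on the same strand with 4.47, 4.69, 4.26 and 6.16, a mean of 4.79 ± 0.38. Here library 4 was highest, on at least 49 reads over 1.

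The other regions enriched in all 4 libraries were lower. Region chr9:136294330-136294731 on the plus strand had 5.62, 3.44, 5.17 and 5.24, a mean of 4.76 ± 1.16, with library 2 lowest on 135 reads over 13. Region chr9:140138044-140138140, also plus, had 3.67, 4.41, 4.26 and 4.07, a mean of 4.08 ± 0.38, on 16 over 4, 224 over 11, 9 over 1 and 23 over 2 reads. Over the 13 regions, library 1 gave the lowest value in 6 and library 4 the highest in 6. Region chr9:140276316-140276661 on the minus strand, enriched in 3 libraries, had 5.19, 4.20 and 5.75 in libraries 1, 2 and 4. In library 3 it was listed at 2.89 on 28 reads over 8, just under the fold asked for.

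Enriched regions were grouped into clusters, defined after seeing the data as regions of any library within 5 kb of each other on a strand. A cluster thus begins and ends at enriched regions, which raises the enriched share inside it, most for the library that gave most regions. The 100 regions fell into 28 clusters, 16 of them a single region. The 2 clusters of at least 10 regions held 46. Like counts over all chromosomes are not given here. Reproducible regions were found in 11 clusters. Of the 19 reproducible regions, 14 had another within 5 kb on the same strand, or 73.7%, against 62.8% over all chromosomes.

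The largest cluster was chr9:139420053-139434647 on the minus strand, with 27 regions over 14595 bases. Library 1 enriched 28 of its 36 listed peaks there (77.8%), library 2 enriched 8 of 33 (24.2%), library 3 enriched 3 of 10 and library 4 enriched 3 of 21 (14.3%). The cluster held 32.2% of all enriched peaks of library 1 in the stretch, and 9.76%, 11.1% and 8.11% of those of libraries 2 to 4. Of its 27 regions, 20 were enriched in library 1 alone and 4 in library 2 alone. The calls of library 1 therefore set most of the cluster, and its high share and fold there follow in part from that choice. The median log2 fold of the peaks listed there was 3.71, 2.28, 2.78 and 2.54.

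Medians of read numbers in that cluster were taken over listed peaks, enriched or not, whose reads could be worked out. They were 17.5 immunoprecipitation reads over 4 input reads in library 1, and 32 over 7 in library 2. Over enriched peaks alone they were 20.5 over 4 in library 1 and 50.5 over 4.5 in library 2. The latter cover 24 of the 28 enriched peaks of library 1 and all 8 of library 2. Deep peaks of library 1 are left out, such as one with at least 198 reads over 17. The depth of input over immunoprecipitation enters the fold at 3.18 in library 1 and 1.04 in library 2. Its part in the difference of folds between libraries 1 and 2 was not tested. Both reproducible regions of the cluster lay together, with 25 bases between them. Region chr9:139422685-139422997 had 5.62, 3.94, 5.17 and 4.94, a mean of 4.87 ± 0.86. Region chr9:139423023-139423136 had 4.96, 3.27, 3.59 and 3.86, a mean of 3.99 ± 0.88. Library 1 was highest and library 2 lowest in both.

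The second cluster, chr9:140615579-140620442 on the plus strand, differed the other way. It held 19 regions over 4864 bases. Library 2 enriched all 17 of its listed peaks, library 1 enriched 11 of 15, library 3 enriched 2 of 4 and library 4 enriched 5 of 8. Here 10 regions were enriched in library 2 alone and 3 in library 1 alone. The calls of library 2 therefore set much of this cluster, and its high share there follows in part from that choice. Its 2 reproducible regions are those near the far end described above, at the start of the cluster. The median log2 fold of its listed peaks was 4.47, 4.58, 3.67 and 4.50, so the libraries differed less in fold than in how many peaks they listed.

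**Figure D4:**
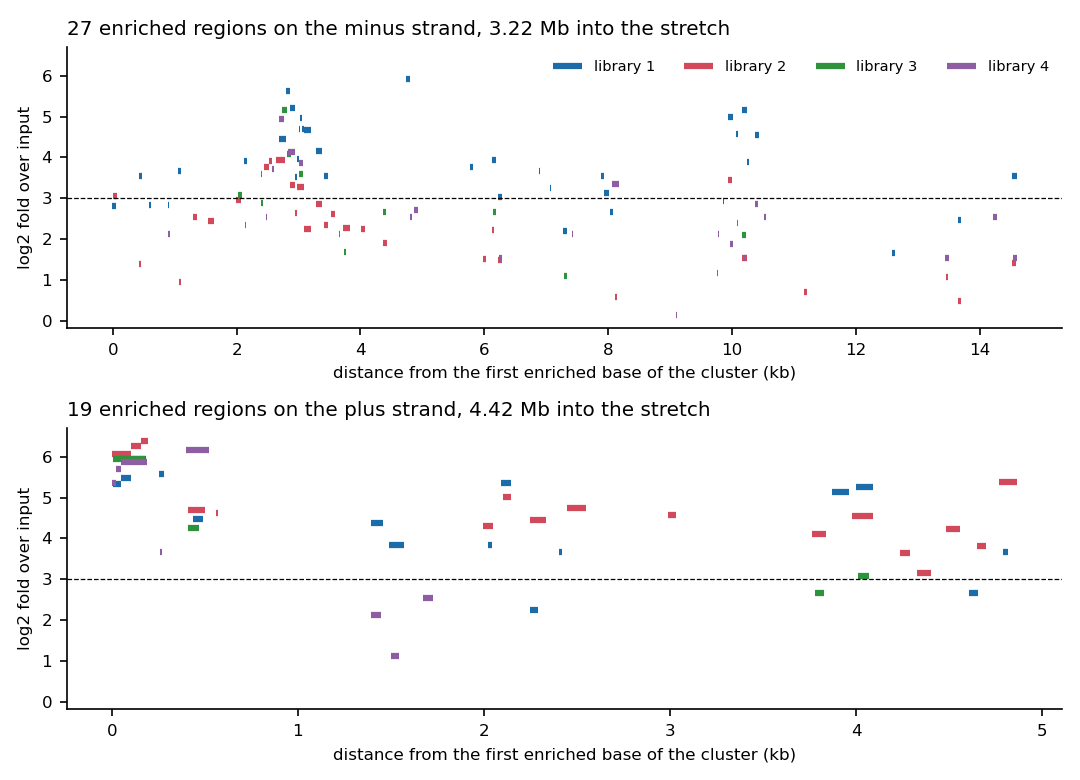
Each bar is a listed peak of the 2 largest clusters, drawn to scale from the first enriched base of the cluster in kb (x) at its log2 fold over input (y) and coloured by library, with the dashed line at a log2 fold of 3. In the upper panel, on the minus strand, library 1 lies mostly above the line and the other libraries mostly below it away from the peak group near 3 kb. In the lower panel, on the plus strand, all peaks of library 2 lie above the line. Both clusters were drawn around enriched regions, which favours peaks above the line.

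Of the smaller clusters, chr9:140273083-140276865 on the minus strand held 9 regions over 3783 bases. Library 2 enriched 11 of 16 listed peaks there, against 2 of 6, 1 of 6 and 4 of 8 in libraries 1, 3 and 4. The cluster chr9:136651055-136658412, which starts with the run of 3 on the minus strand, held 7 regions over 7358 bases. Its enriched shares were 58.3%, 42.9%, 60% and 57.1%. The bounds of both clusters were likewise set by enriched regions.

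Some members lay below input, and 3 sites did so in all 4 libraries. Below-input peaks numbered 5, 157, 8 and 11 in libraries 1 to 4, and they merged into 169 sites. That was 1.36%, 14.7%, 4.91% and 4.14% of the peaks listed in the stretch, against 2.84%, 15.6%, 4.29% and 7.42% of all listed peaks. Their deposited −log10 p is 0 throughout, and no test of loss was made. The lowest log2 fold of every library was at the same site, chr9:139620558-139620689 on the minus strand, 132 bases wide. It was -3.17, -1.92, -2.33 and -1.91, a mean of -2.41 ± 0.67 (SD, n = 3). The site was well covered, with at least 11, 106, 23 and 40 immunoprecipitation reads over at least 315, 419, 246 and 219 input reads.

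A site of the same width, chr9:139621199-139621330, lay on the same strand, with 509 bases between them, and had -1.79, -1.54, -1.70 and -1.29, a mean of -1.61 ± 0.16. The third, chr9:137029610-137029663 on the minus strand, had -2.50, -0.21, -1.41 and -1.63, a mean of -1.41 ± 1.15, with library 2 nearest to input. All 3 sites are places where the lists hold a peak in each library and input holds more reads for its depth. The 3 sites were chosen after their values were seen.

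Being listed in all libraries did not amount to enrichment. Merging all listed peaks of the stretch gave 1433 sites, of which 34 were listed in all 4 libraries (2.37%, against 2.19% over all chromosomes). Of these 34, 8 were enriched in none. The like count over all chromosomes is not given here, so whether this is particular to the stretch cannot be said. The last listed peak of the chromosome, at chr9:141123541-141123659 on the plus strand as library 2 gives it, was found in all 4. Its log2 folds were 4.57, 5.70, 2.41 and 3.71, on 15 over 2, 50 over 1, 5 over 2 and 9 over 1 reads. It was enriched in libraries 1 and 2, while library 4 missed the p at a −log10 p of 2.71.

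The reads behind enriched peaks set how firmly their folds are known. Reads could be worked out for 70 of 87, 62 of 82, 18 of 27 and 20 of 37 enriched peaks in libraries 1 to 4. Most of those left out had a p at the ceilings, which can lower the medians that follow. Over the peaks with reads worked out, the median was 17, 43.5, 16.5 and 22 immunoprecipitation reads, and the lowest 7, 13, 9 and 10. An input of 1 read, or of 0, stood behind 17.1%, 22.6%, 66.7% and 40% of these peaks. The median log2 fold of all enriched peaks was 4.57, 4.54, 5.17 and 5.35.

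**Figure D5:**
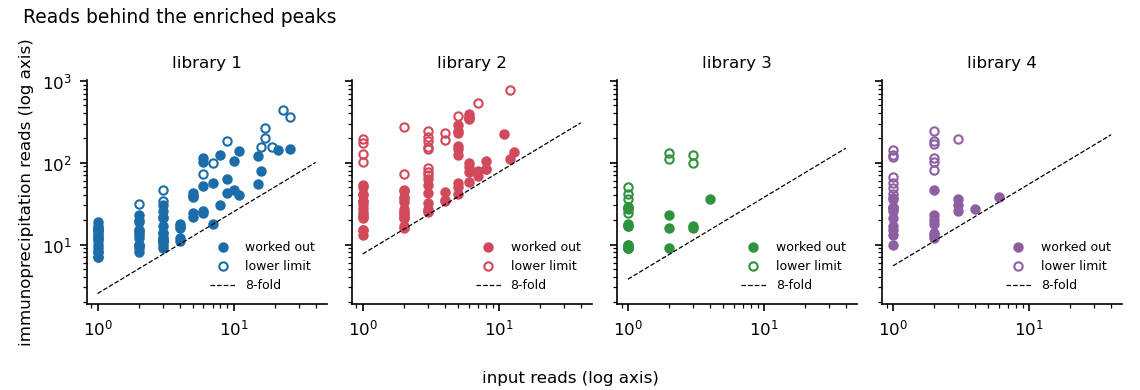
Each point is an enriched peak of the stretch, by its input reads (x, log axis) and immunoprecipitation reads (y, log axis), 1 panel per library. Filled points are read numbers that could be worked out, where an input of 1 stands for 0 or 1, open points are lower limits at the ceilings of p, and the dashed line is 8-fold at that library's depth. Points of libraries 3 and 4 stand mostly at 1 to 3 input reads, and those of library 1 reach past 20.

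The log2 folds of overlapping peaks were related across libraries. Pearson's r across overlapping peaks on the same strand was 0.74 for libraries 1 and 2 (166 pairs of peaks), 0.80 for 1 and 3 (70), 0.74 for 1 and 4 (109), 0.85 for 2 and 3 (102), 0.87 for 2 and 4 (151) and 0.91 for 3 and 4 (70). These 6 values are a description across peaks, which are not independent replicates and share the library's depth. Among peaks where both libraries had a −log10 p of 3 or more, the 3 pairs with library 1 gave 0.46, 0.32 and 0.30, and the other 3 pairs 0.80, 0.81 and 0.83. Over well-supported peaks the order of folds in library 1 thus resembled the other libraries less than those resembled each other, a difference that was not tested.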

How the data were processed

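The 4 deposited peak lists, 1 per eCLIP library, were read as BED files. Per the submitters' processing notes the build is hg19. Each peak carries a deposited −log10 p and a deposited log2 fold of immunoprecipitation over input, both made by the authors. The sources used here give neither the aligner nor the peak caller, nor the input set against each library. Peaks were called per library. Positions are printed 1-based.

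From these values, enriched peaks were chosen, merged into regions by strand, and counted, with Python 3.11.15, pandas 2.3.3, numpy 2.4.6 and scipy 1.17.1. Reads were worked back within a relative tolerance of 0.0005. An exact binomial test at the library's depth was used where a read number was under 5, and otherwise a chi-square test with continuity correction. This gave unique reads for 93.8%, 89.9%, 97.0% and 95.8% of the peaks of libraries 1 to 4 over all chromosomes with a log2 fold above 0 and a p below the ceilings. Total reads per library are unknown. Whether the authors computed p by these tests is not known. The steps were tested on simulated data. Those used the same tests and widely spaced regions, so they do not bear on how the deposited p was made or on touching peaks. Libraries were compared by a chi-square test over peaks with at least 80% overlap and at least 40 reads in the pair.

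The named regions are those enriched in all 4 libraries, those in runs of 3, those at either edge of the stretch and the lowest peaks. Other regions were named after their values were seen. The stretch, the thresholds and these lists were chosen with earlier results of these data known. Alternatives were the thresholds, the libraries asked for, the overlap, the gap, the comparison set, and leaving out each library. No sequence is printed, since no hg19 genome was used here.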

Additional observations from a re-analysis of the deposited data

Results flagged for a closer look

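Over the 4 libraries, 30 quantities of the stretch were compared for 1 library far from the other 3, by the gap to its nearest neighbour over the whole range, and 5 stood apart past Dixon's critical value. For independent libraries, chance gives about 1 in 20, or 1.5 of 30. Libraries 3 and 4 agreed within sampling noise, so that number need not hold here.

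Library 2 listed 157 peaks below input, against 5, 8 and 11 in libraries 1, 3 and 4. It also listed the most peaks, 1065 against 369, 163 and 266, and its share below input of 14.7% lay near its 15.6% over all chromosomes. In library 1, 40.8% of the peaks listed from 3.0 to 3.5 Mb into the stretch were enriched, against 5.23%, 9.09% and 5.77%. That half-Mb holds the largest cluster. In the cluster that starts at chr9:136651055 on the minus strand, library 2 enriched 42.9% of its listed peaks, against 58.3%, 60% and 57.1%. The bounds of that cluster were set by enriched regions.

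The remaining 2 are single regions. In chr9:140615579-140615770 the log2 fold of library 2 was 6.39, with the others at 5.88 to 5.94. In chr9:137313964-137314109 the log2 fold of library 4 was 5.40, with the others at 5.25 to 5.26.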

How the results depend on the processing

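The sign of the difference in enriched share depended on the comparison set: it was 4.24 points against all other listed peaks, 4.74 against the other peaks of chromosome 9, and -2.41 against the other chromosome ends. It stayed above 0 with a −log10 p of at least 5 (4.75), a log2 fold of at least 1 (4.64), and without the largest cluster (1.96, added after seeing the data). Leaving out each library in turn gave 2.49 to 5.19 points, and 11.5% to 19.4% for the share itself.

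The count of 19 reproducible regions moved to 30 at 2 of 4 libraries and to 30 with libraries 3 and 4 joined, and ran from 24 to 29 without a library, where 2 of 3 were asked for. The 10 on the plus strand became 16 under either, 16 with an overlap of 20 bases, and 11 to 16 without a library. Runs numbered 11, and 11 to 14 without a library. The mean correlation of 0.82 fell to 0.59 among peaks where both libraries had a −log10 p of 3 or more, and ran from 0.78 to 0.88 without a library. The causes were not tested. A restriction to peaks with many immunoprecipitation reads selects on what sets the call and is not reported. For the 13 regions enriched in all 4 libraries, leaving out a library could move the mean of 3 samples by only part of its SD, so this says little of stability. For chr9:140403558-140403802 the mean log2 fold of 5.78 became 4.85 without library 2 and 6.77 without library 1.

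No paired analysis was possible because no values of the like-numbered input libraries were used here, only the authors' ratios to input. Few input reads limit the folds of libraries 3 and 4, and 3 samples limit any test.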
